A study of Mus musculus with 4 samples.

Results

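Chromatin accessibility was examined at 10 genes of the apelin, sphingosine 1-phosphate (S1P) and adrenomedullin systems and of the endothelial adhesion receptor family, out of 21755 protein-coding genes on the chromosomes used. The genes were taken by name and not by a rule on measured values, but earlier results of these data were known when they were chosen. They comprised 6 receptors (Aplnr, S1pr1, S1pr3, Calcrl, Adgrl4 and Adgrf5), 2 accessory subunits of the calcitonin receptor-like receptor (Ramp2 and Ramp3) and 2 ligand genes (Apln and Adm). ATAC-Seq, in which the transposase Tn5 inserts sequencing adapters into open chromatin, had been run on sorted nuclei from whole hearts of male C57BL/6 mice aged 8 to 12 weeks. All animals carried NuTRAP, a Cre-dependent GFP reporter by which the nuclei were sorted, and Cdh5-Cre, in which the promoter of the vascular endothelial cadherin gene drives the recombinase. GFP+ nuclei are therefore those of cells in which this Cre had acted, whereas GFP- nuclei are a mixture from the other cells of the same hearts. Per the paper's methods, single diploid nuclei were gated by DNA stain before the GFP sort, so nuclei of higher DNA content were left out. Each population had 2 libraries made from 100 to 50000 nuclei, but both libraries were pooled in 1 deposited peak list per population, so no value below carries a replicate error and no test between the populations was made. As the nuclei were measured in bulk, more nuclei with an open site and a more open site in each nucleus cannot be told apart.

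Apelin, S1P and adrenomedullin are circulating or locally made signals that endothelial cells read through receptors coupled to G proteins. S1PR1 holds endothelial junctions together, the apelin receptor takes part in the growth of vessels and in the contractility of the heart, and CALCRL becomes an adrenomedullin receptor when it pairs with RAMP2 or RAMP3. Adgrl4 (also known as Eltd1) and Adgrf5 (also known as Gpr116) encode adhesion receptors with long extracellular domains that are known from endothelial cells.

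The GFP- list held 78912 peaks and the GFP+ list 65008. Because the lists differ in length and scale, each peak was given the percentile rank of its area (the summed significance above threshold that the peak caller Genrich writes) within its own list, where 0 is the weakest and 100 the strongest peak. A start peak is a peak within 250 bp of the 5′ end of any GENCODE transcript of the gene, and a gene was called higher or lower when its best start rank differed by over 20 points or when only 1 list had a start peak. Of 8 endothelial marker genes, all had a GFP+ start peak, with ranks from 54.1 to 98.7. Pecam1, Emcn and Erg had none in the GFP- list, in which the other 5 ranked from 18.0 (Cdh5) to 81.1 (Tek). Cdh5 itself ranked 85.3 in GFP+, and 6 of the 8 were called higher, beside 2.53% of all genes with a start peak in either list. Tek, the angiopoietin receptor gene, went the other way (81.1 in GFP-, 54.1 in GFP+). The GFP+ list also held start peaks of 6 of 7 cardiomyocyte (ranks from 86.0 upward), 3 of 7 pericyte and smooth muscle and 2 of 6 fibroblast marker genes. In the GFP- list these counts were 6, 7 and 5. Of all protein-coding genes, 59.8% had a start peak in GFP+ and 61.8% in GFP-. Of the lymphatic endothelial markers, Prox1 (86.5 in GFP-, 82.7 in GFP+) and Lyve1 (36.8 and 25.8) had start peaks in both lists, Flt4 was called higher (58.8 and 83.3), and Pdpn was in GFP- only. Of the mesothelial markers Wt1 was called higher in GFP+ (61.8 and 83.0) and the other 2 had no start peak. The GFP+ macrophage markers had 1 of 4 start peaks (Cd68, rank 16.8) and the Schwann markers 0 of 2.

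Stretches of open chromatin that lie outside the promoters are shown first. The populations do not differ by a call at all of them, since the Adm element ranked 87.9 in GFP- and 81.5 in GFP+. Each is the 200 bp around the summit of a GFP+ peak, read from the mm10 genome (GRCm38.p6) 5′ to 3′ on the strand of its gene and free of annotated exons. They are the highest-ranked GFP+ intron or flank peak of the gene, or, for Adgrf5, its highest-ranked intron peak in GFP+ only. For Ramp3 and Adm the peak at the start of a neighbouring gene was passed over. Capitals mark short words that were searched on both strands: CAGGAAG (ETS factors), ACAATGG (SOX factors), TGANTCA (AP-1) and ACGTGC (hypoxia response). None of the marked words overlap each other.
Aplnr upstream element, chr2:85129632-85129831 (+): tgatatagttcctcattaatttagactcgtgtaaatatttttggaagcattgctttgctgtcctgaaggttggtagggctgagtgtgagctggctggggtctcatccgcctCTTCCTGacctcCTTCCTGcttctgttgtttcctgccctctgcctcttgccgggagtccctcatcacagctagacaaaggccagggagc
S1pr1 downstream element, chr3:115709146-115709345 (-): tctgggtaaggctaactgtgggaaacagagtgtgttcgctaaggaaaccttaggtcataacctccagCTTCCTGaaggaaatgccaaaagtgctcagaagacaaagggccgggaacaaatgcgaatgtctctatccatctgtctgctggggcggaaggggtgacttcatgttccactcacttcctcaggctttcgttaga
Adgrl4 upstream element, chr3:151424403-151424602 (+): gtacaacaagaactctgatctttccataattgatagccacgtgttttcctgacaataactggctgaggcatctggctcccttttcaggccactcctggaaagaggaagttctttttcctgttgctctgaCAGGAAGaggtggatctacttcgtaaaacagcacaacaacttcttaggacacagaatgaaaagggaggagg
Adgrf5 intron element, chr17:43366561-43366760 (+): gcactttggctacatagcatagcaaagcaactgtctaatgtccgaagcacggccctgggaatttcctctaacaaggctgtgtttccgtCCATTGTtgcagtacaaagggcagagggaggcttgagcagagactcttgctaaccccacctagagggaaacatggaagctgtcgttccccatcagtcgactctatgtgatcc
Calcrl downstream element, chr2:84295199-84295398 (-): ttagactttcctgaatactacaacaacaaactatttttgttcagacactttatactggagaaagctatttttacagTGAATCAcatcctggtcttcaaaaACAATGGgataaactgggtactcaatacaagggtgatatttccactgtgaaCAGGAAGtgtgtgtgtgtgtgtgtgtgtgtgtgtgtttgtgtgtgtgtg
Ramp3 intron element, chr11:6675477-6675676 (+): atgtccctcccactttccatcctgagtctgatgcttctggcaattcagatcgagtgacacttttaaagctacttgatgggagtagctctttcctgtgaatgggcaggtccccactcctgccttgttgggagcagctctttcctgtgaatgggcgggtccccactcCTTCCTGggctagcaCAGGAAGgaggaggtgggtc
Adm downstream element, chr7:110630251-110630450 (+): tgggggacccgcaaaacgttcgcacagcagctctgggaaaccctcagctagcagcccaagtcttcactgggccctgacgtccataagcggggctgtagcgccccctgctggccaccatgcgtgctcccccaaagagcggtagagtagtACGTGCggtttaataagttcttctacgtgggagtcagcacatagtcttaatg

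The ETS word stands in 5 of these 7 sequences, 2 times each in those of Aplnr and Ramp3, and the Calcrl element also holds an AP-1 and a SOX word. The 7 were selected after their values were seen, so this count is not a share of the gene windows. Around the summits of all 95 GFP+ peaks of the 10 genes the ETS word was in 23 (24.2%), beside 13.0% of all GFP+ peaks. A match is a description of the letters and not a measured site. Promoter sequences of 250 bp were held by the RefSeq table (GRCm38.p6) for 7 of the 10 genes. The following 2 belong to the genes with the highest-ranked start peak found in 1 list only, and neither contains any of the 8 words searched. The S1pr3 promoter lies under a peak found in GFP- only and the Adgrl4 promoter under one found in GFP+ only.
S1pr3 promoter, chr13:51408368-51408617 (+): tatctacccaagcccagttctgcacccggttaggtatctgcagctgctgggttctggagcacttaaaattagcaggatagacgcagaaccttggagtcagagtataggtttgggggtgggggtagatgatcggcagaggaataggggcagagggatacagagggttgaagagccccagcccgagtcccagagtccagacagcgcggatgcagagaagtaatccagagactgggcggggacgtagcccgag
Adgrl4 promoter, chr3:151437632-151437881 (+): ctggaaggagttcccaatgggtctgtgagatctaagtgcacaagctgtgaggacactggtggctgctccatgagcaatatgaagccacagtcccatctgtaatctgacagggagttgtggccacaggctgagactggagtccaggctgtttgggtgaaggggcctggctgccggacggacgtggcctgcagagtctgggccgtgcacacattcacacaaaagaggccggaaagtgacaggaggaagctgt

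At their starts, 9 of the 10 genes had a GFP+ peak and 8 had a GFP- peak, where 59.8% and 61.8% of all protein-coding genes did. The genes Aplnr, Adgrl4, Adgrf5 and Ramp3 were called higher in GFP+, which is 4 of 10 beside 2.53% of the 13643 protein-coding genes with a start peak in either list. S1pr3 was called lower, 1 of 10 beside 8.72%. The start was in the GFP+ list only for Adgrl4 and Ramp3 (background 1.46%) and in the GFP- list only for S1pr3 (background 4.71%). Counting differences of any size, 8 of 10 genes ranked higher in GFP+, whereas 28.6% of the 13643 genes with a start peak in either list did. The median difference, GFP+ minus GFP-, was 7.39 points over the 10 genes and -0.81 over those 13643 genes. When peaks were ranked by area per bp, 3 genes were called higher, Aplnr having a difference of 15.7, and 2 were called lower.

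**Figure D1:**
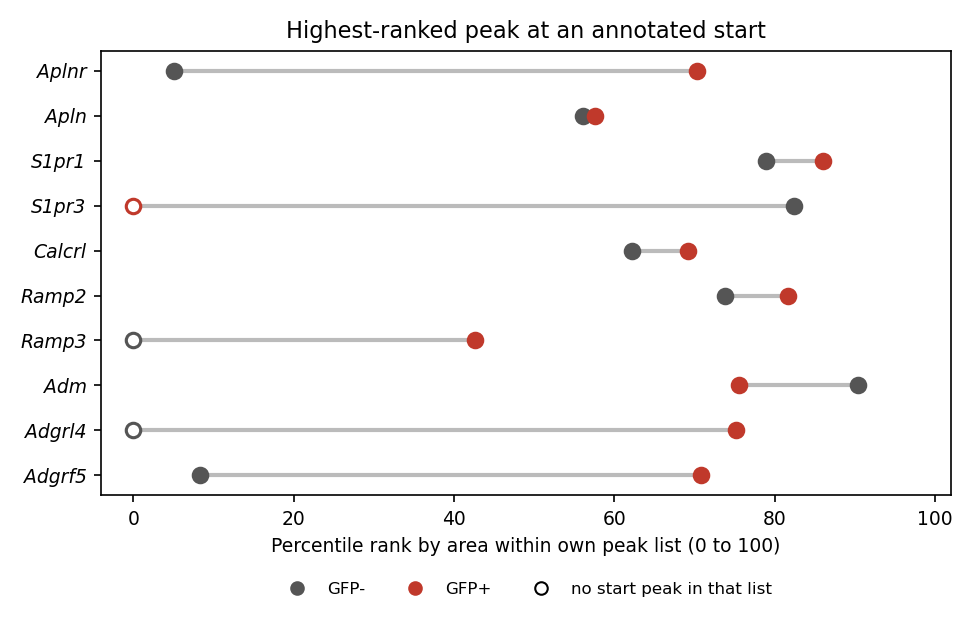
Percentile rank by area of the best start peak of each gene (x axis, 0 to 100 within the own list) in the GFP- list (grey) and the GFP+ list (red), 1 pooled list per population with no error. Open circles at 0 mark a list without a start peak. Aplnr runs from 5.07 to 70.3 and S1pr3 lies at 82.4 in GFP- with nothing in GFP+.

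The apelin receptor gene Aplnr (chr2:85136225-85139923, + strand) showed a wide contrast. Its start peak was 287 bp long with rank 5.07 in GFP- and 1200 bp long with rank 70.3 in GFP+, a difference of 65.2 points. The GFP- start was thus listed, but among the weakest peaks of that list. In all, 48.9% of the gene record lay in GFP+ peaks and 6.03% in GFP- peaks. A second transcript, starting inside the gene, had a weak peak (rank 1.57) in GFP+ only.

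Upstream of Aplnr both lists held the same 5 peaks, and their ranks differed unevenly. The element printed above, 6493 bp upstream of the gene's 5′ end, ranked 32.8 in GFP- and 82.7 in GFP+. The next one toward the gene, 4328 bp upstream, ranked 4.15 in GFP- and 59.9 in GFP+. The farthest, 37231 bp upstream, ranked high in both (72.1 and 81.1). The contrast was therefore widest near the gene, while 1 of the 5, at 12848 bp upstream, ranked lower in GFP+ (42.8 in GFP-, 39.0 in GFP+). Downstream, the highest-ranked GFP+ only peak (rank 54.3) lay 27776 bp from the 5′ end within the neighbouring gene Lrrc55. Another peak in Lrrc55, at 36058 bp, ranked lower in GFP+ (86.8 in GFP-, 70.6 in GFP+). All 8 GFP- peaks of this window overlapped a GFP+ peak, but 4 of the 12 GFP+ peaks had no GFP- counterpart. Over all peaks, 30.3% of GFP- and 13.4% of GFP+ peaks had no counterpart.

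Apln (chrX:48025146-48034853, - strand), which encodes the ligand, gave near-equal ranks at its start, 56.1 in GFP- and 57.6 in GFP+, with peaks of 886 and 860 bp. Its intron peak ranked 35.9 in GFP- and 45.6 in GFP+, and its upstream peak, at 19497 bp, 67.1 and 65.6. No GFP+ peak of this window stood alone (0 of 5, beside 13.4% of all GFP+ peaks). Of the GFP- peaks 4 of 9 did (beside 30.3% of all GFP- peaks), the highest of them 49185 bp downstream of the 5′ end with rank 53.3. Both counts were too small to set apart from these shares. After overlapping peaks of both lists were merged into regions, 10 of 12 regions of Aplnr ranked higher in GFP+ and 3 of 9 of Apln, where 32.1% of all regions did, so that the count for Apln was near the background.

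S1pr1 (chr3:115710433-115715072, - strand), the main endothelial S1P receptor gene, was open at its start in both lists. The start peak ranked 79.0 in GFP- (1090 bp) and 86.0 in GFP+ (1131 bp), a difference of 6.99 points. The contrast lay around and behind the start. The element printed above, 5826 bp downstream of the 5′ end and just beyond the gene's 3′ end, ranked 46.3 in GFP- and 85.4 in GFP+, nearly as high as the start itself. Within the gene, an exon peak at 3523 bp (rank 67.2) was in GFP+ only. Further downstream, 3 GFP+ only peaks at 22069, 32090 and 41380 bp had ranks of 46.7, 48.8 and 45.2. Of 15 GFP+ peaks, 8 had no GFP- overlap, beside 13.4% of all GFP+ peaks. Of the gene record, 54.6% lay in GFP+ peaks and 17.3% in GFP- peaks. Upstream, the peak at 22979 bp ranked alike (70.2 in GFP-, 68.5 in GFP+), and the one at 43443 bp did not (42.1 and 68.9).

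S1pr3 (chr13:51408639-51422797, + strand), an S1P receptor gene also used by smooth muscle and fibroblasts, had the opposite pattern. Its start carried a GFP- peak of 1091 bp with rank 82.4, and the nearest GFP+ peak was 9298 bp away. A second GFP- only peak, 947 bp upstream, had rank 56.7, and another, in the intron 5097 bp downstream, had rank 28.1. The GFP+ list held 3 peaks in the window. An exon peak at 10103 bp ranked 64.0 in GFP+ and 78.8 in GFP-, and the other 2 ranked 2.14 and 0.058 in GFP+. The region ranks were all higher in GFP- (8 of 8), where 58794 of all 86649 regions ranked lower in GFP+. Of the 8 regions 3 were in both lists, and the others had no GFP+ peak and so rank 0 there. In the same lists, start peaks in GFP- only were found for 4 of 7 pericyte and smooth muscle markers (Pdgfrb, Rgs5, Acta2 and Tagln) and 3 of 6 fibroblast markers (Dpt, Tcf21 and Dcn). Of all genes with a start peak in either list, 4.71% had it in GFP- only. The fibroblast markers Pdgfra (96.5 in GFP-, 87.0 in GFP+) and Col1a1 (95.6 and 80.7) had start peaks in both lists, and Lum in neither. The whole pericyte and smooth muscle list had GFP- ranks from 7.99 to 85.6, and its 3 GFP+ start peaks ranked from 49.1 to 76.1. The part of these cell types in the S1pr3 values was not tested.

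Calcrl (chr2:84330626-84425411, - strand) encodes the 7-pass receptor shared by adrenomedullin and CGRP. Its start peak was similar in length and rank, with 586 bp and rank 62.2 in GFP- and 617 bp and rank 69.2 in GFP+. Both lists therefore placed the promoter in the middle to upper part, and the difference of 7.01 points was under the 20 used for a call. Among the regions higher in GFP+, the widest contrast was in the element printed above, 130112 bp from the 5′ end in the 3′ flank, with rank 13.8 in GFP- and 65.3 in GFP+. An intron peak at 38367 bp ranked 21.1 in GFP- and 64.0 in GFP+ with lengths of 759 and 1240 bp. Beside it, an intron peak at 40242 bp (rank 48.5) was in GFP+ only. GFP- only intron peaks were seen as well, at 88851 bp (rank 56.5), 31979 bp (rank 40.4) and 44366 bp (rank 30.1). In the whole window 6 of 15 GFP- peaks had no counterpart, beside 30.3% of all GFP- peaks. Of the GFP+ peaks 2 of 11 had none, beside 13.4% of all GFP+ peaks. Both counts were too small to set apart from these shares. All 5 upstream GFP+ peaks overlapped GFP- peaks and lay in the neighbouring gene Tfpi, the strongest ranking 60.6 in GFP- and 56.7 in GFP+.

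Ramp2 (chr11:101246028-101259546, + strand), the subunit that gives CALCRL its adrenomedullin specificity, had a start peak of 938 bp and rank 73.9 in GFP-. In GFP+ the peak was 1947 bp long with rank 81.6, and it lay within 250 bp of all 8 annotated starts, where the GFP- peak missed the last. The direction of this difference (7.78 points) depended on the measure, since by area per bp it was -24.5. An adjoining intron peak ranked 49.5 in GFP- and 76.2 in GFP+. Immediately upstream, a GFP- only peak with rank 81.1 had its summit 763 bp from the 5′ end and ended 296 bp short of the nearest GFP+ peak. The strongest flank peak, 14939 bp upstream, ranked 97.7 in GFP- and 90.3 in GFP+. Other peaks in this dense window lay at the starts of neighbouring genes. They ranked 74.1 in GFP- and 73.0 in GFP+ at Vps25, 91.4 and 89.7 at Wnk4, 86.4 and 82.3 at Coa3, and 78.5 and 77.6 at Becn1. Of the Ezh1 starts, one had a peak in both lists (78.6 and 81.3) and another a weak peak in GFP+ only (rank 16.1).

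Ramp3 (chr11:6658521-6677475, + strand), the alternative subunit, had no GFP- start peak, and its GFP+ start peak was modest (435 bp, rank 42.6). The nearest GFP- peak was 3100 bp away. Stronger contrasts lay within and behind the gene. The intron element printed above, at 17056 bp, ranked 29.7 in GFP- and 73.9 in GFP+, and a downstream peak at 22122 bp ranked 24.2 and 73.2. A further downstream peak, at 36911 bp (rank 63.7), was in GFP+ only. The start of the neighbour Tbrg4, in the same window, ranked 92.8 in GFP- and 94.0 in GFP+. In the opposite direction, a peak at 30729 bp upstream (rank 60.3) was in GFP- only.

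Adm (chr7:110627661-110629820, + strand), the adrenomedullin gene, was among the most open of the 10 genes in both lists. Its start peak ranked 90.4 in GFP- (2361 bp) and 75.5 in GFP+ (1100 bp), a difference of -14.9 points. The long GFP- peak also covered a second GFP+ peak in the gene (rank 62.7). The element printed above, 2690 bp downstream of the 5′ end, ranked 87.9 in GFP- and 81.5 in GFP+ and contains a hypoxia response word. A peak 11333 bp downstream ranked 74.2 and 73.3, while the highest GFP- only peak (rank 69.5), at 20919 bp, lay 221 bp from a weak GFP+ peak of rank 13.3. The strongest flank peak was the start of the neighbour Sbf2, with rank 96.5 in both. Of 11 regions, 2 ranked higher in GFP+, where 32.1% of all regions did.

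Adgrl4 (chr3:151437887-151545086, + strand) had the sparsest window. Its promoter peak (665 bp, rank 75.2) was in GFP+ only, with the nearest GFP- peak 12964 bp away. That GFP- peak is the weak counterpart of the element printed above, 13384 bp upstream, which ranked 4.87 in GFP- (272 bp) and 77.0 in GFP+ (915 bp). These were the only peaks of the window in either list, so that the gene record of 107.2 kb held none beyond the promoter. Of its 6 annotated starts 3 lay at the promoter peak and the other 3, deeper in the gene, had no peak in either list.

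Adgrf5 (chr17:43360451-43459557, + strand) was the richest in GFP+ only peaks, with 11 of 17, beside 13.4% of all GFP+ peaks. All 6 of its GFP- peaks overlapped a GFP+ peak, where 30.3% of all GFP- peaks did not. Its first start ranked 8.34 in GFP- (322 bp) and 68.5 in GFP+ (989 bp). A second group of starts, 29069 bp into the gene, carried a GFP+ peak of 1192 bp with rank 70.9 and no GFP- peak within 23283 bp. Both groups of starts thus differed in the same direction. In the introns, 9 of 11 GFP+ peaks stood alone, the highest being the element printed above at 6210 bp with rank 56.0, and the 9 ranked from 11.9 to 56.0. An intron peak in both lists, at 5029 bp, ranked 28.9 in GFP- and 61.1 in GFP+. The highest-ranked flank peak, 33587 bp upstream, was close in the lists (66.4 in GFP-, 72.3 in GFP+). At the far end the order turned, a 3′ flank peak at 100282 bp ranking 66.8 in GFP- and 53.4 in GFP+. By area per bp the start difference of Adgrf5 was 24.1 points, the smallest of its 6 settings.

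**Figure D2:**
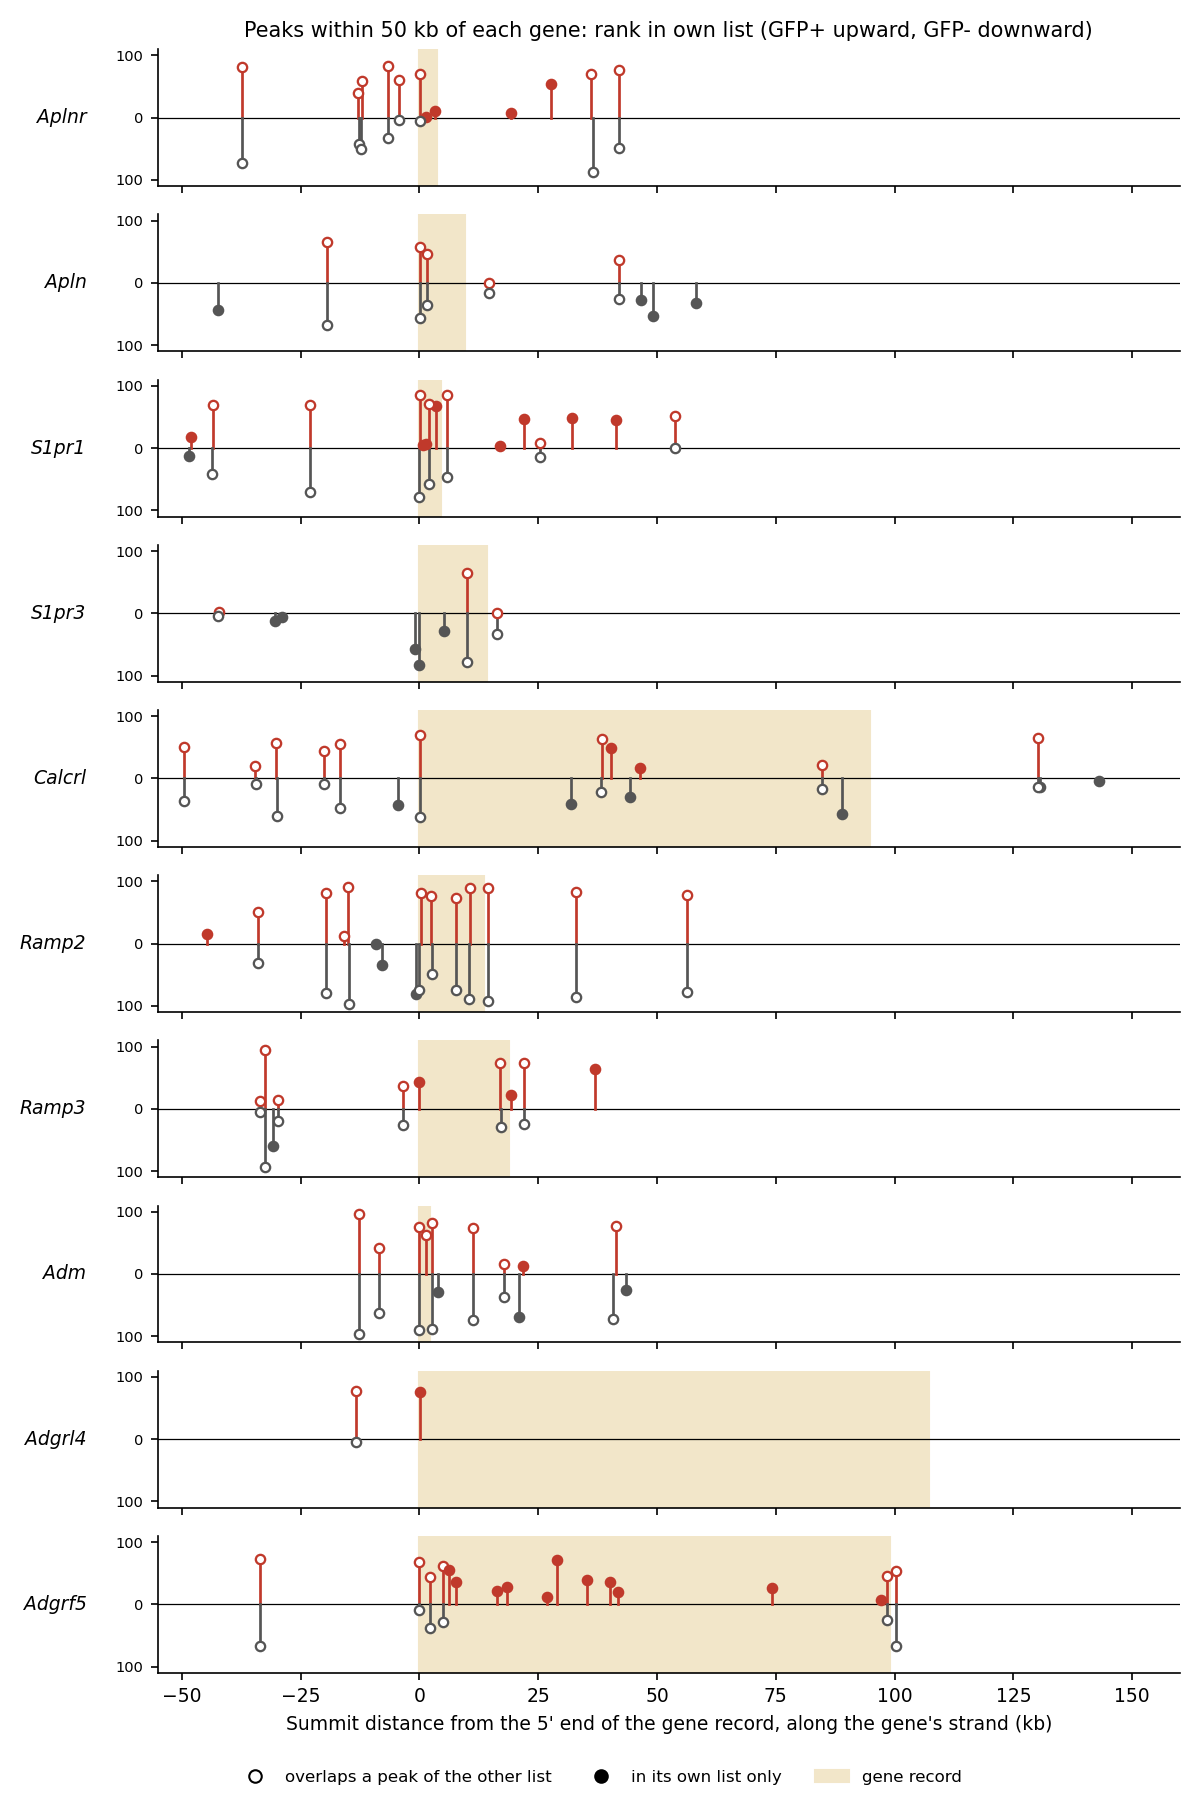
Every peak within 50 kb of each gene, by summit distance from the 5′ end of the gene record along its strand (x axis, kb) and rank in the own list (y axis, 0 to 100, GFP+ upward in red and GFP- downward in grey). Filled circles are peaks without overlap in the other list and the shaded band is the gene record. Adgrf5 has 11 filled GFP+ circles and no filled GFP- circle, and S1pr3 5 filled GFP- and no filled GFP+ circles. Over all peaks 13.4% of GFP+ and 30.3% of GFP- were without overlap.

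Within 50 kb of the 10 genes there were 95 GFP+ and 85 GFP- peaks. Without an overlap of at least 1 bp in the other list were 31 GFP+ peaks (32.6%, 95% Wilson interval 24.0 to 42.6, background 13.4% of all GFP+ peaks) and 23 GFP- peaks (27.1%, 18.8 to 37.3, background 30.3%). The intervals cover counting error only and treat peaks of the same gene as independent, which they need not be. Pooled over the 10 genes, the GFP+ share was above its background and the GFP- share close to its own. Among receptors and subunits 30 of 81 GFP+ peaks stood alone (37.0%, 27.3 to 47.9), and among the ligands 1 of 14 (7.14%, 1.27 to 31.5). Adgrf5 and S1pr1 gave the most, 11 and 8, and without Adgrf5 the GFP+ share was 25.6% (17.3 to 36.3). When overlap had to cover 50% of both peaks, the shares were 53.7% in GFP+ (background 26.3%) and 48.2% in GFP- (background 39.3%).

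By position, GFP+ only peaks made up 13 of 21 intron peaks (61.9%, 40.9 to 79.2) and 9 of 27 peaks in the 3′ flank (33.3%, 18.6 to 52.2). The same positions over all protein-coding genes, counted as pairs of a peak and a gene, gave 16.2% and 10.3%. In the 5′ flank 2 of 28 GFP+ peaks stood alone (7.14%, 1.98 to 22.6, background 11%). Of the 13 intron peaks 9 belong to Adgrf5. At the starts, 4 of 11 GFP+ peaks stood alone (36.4%, 15.2 to 64.6, background 2.98%) and 1 of 8 GFP- peaks (12.5%, 2.24 to 47.1, background 7.62%). GFP- only peaks were 4 of 12 in introns (33.3%, background 34.2%) and 10 of 35 in the 5′ flank (28.6%, 16.3 to 45.1, background 23%), so these were near their backgrounds. Of the peaks found in 1 list only, 4 of the 31 GFP+ and 4 of the 23 GFP- peaks lay within 500 bp of a peak of the other list. Their median rank was 26.7 in GFP+ and 31.6 in GFP-, beside 65.5 and 46.8 for the shared peaks. Distances between listed peaks cannot show whether the same site fell just under the caller's threshold in the other list. Where peaks were shared, their summits lay close together, within 100 bp for 53 of 64 GFP+ and 53 of 62 GFP- peaks.

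**Figure D3:**
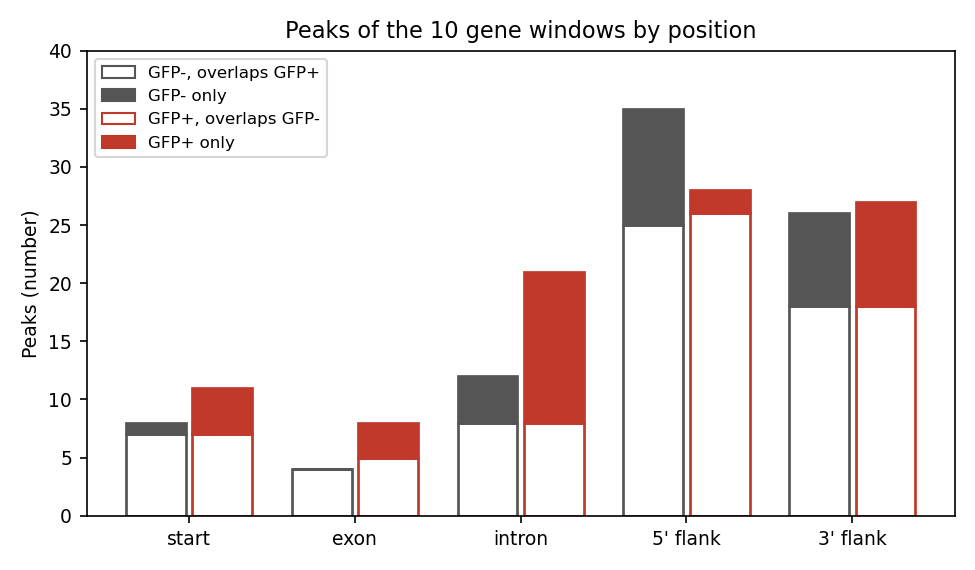
Number of peaks in the 10 gene windows (y axis) by position in the gene (x axis), with GFP- in grey and GFP+ in red. Filled segments are peaks without overlap in the other list. The filled GFP+ part is 13 of 21 in introns and 2 of 28 in the 5′ flank.

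The windows held 116 merged regions, of which 70 ranked higher in GFP+ (60.3%, background 32.1% of 86649 regions). The median difference was 6.49 points, beside -3.90 over all regions. Among the 62 regions present in both lists 39 ranked higher in GFP+ (62.9%, background 35.4%), and 18 did so by over 20 points (29.0%, background 5.07%). Only 3 of the 62 ranked lower by over 20 points (4.84%, background 12.1%). The 18 were spread over Aplnr with 4, S1pr1, Adgrf5 and Calcrl with 3 each, Ramp2 and Ramp3 with 2 each and Adgrl4 with 1, and the 3 lower ones belonged to Adm and S1pr3. The median was not stable. It was 2.80 points with ranks by summit −log10 p and 2.30 with ranks by area per bp, and with flanks of 100 kb it was 0.36 points, 100 of 198 regions being higher in GFP+.

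**Figure D4:**
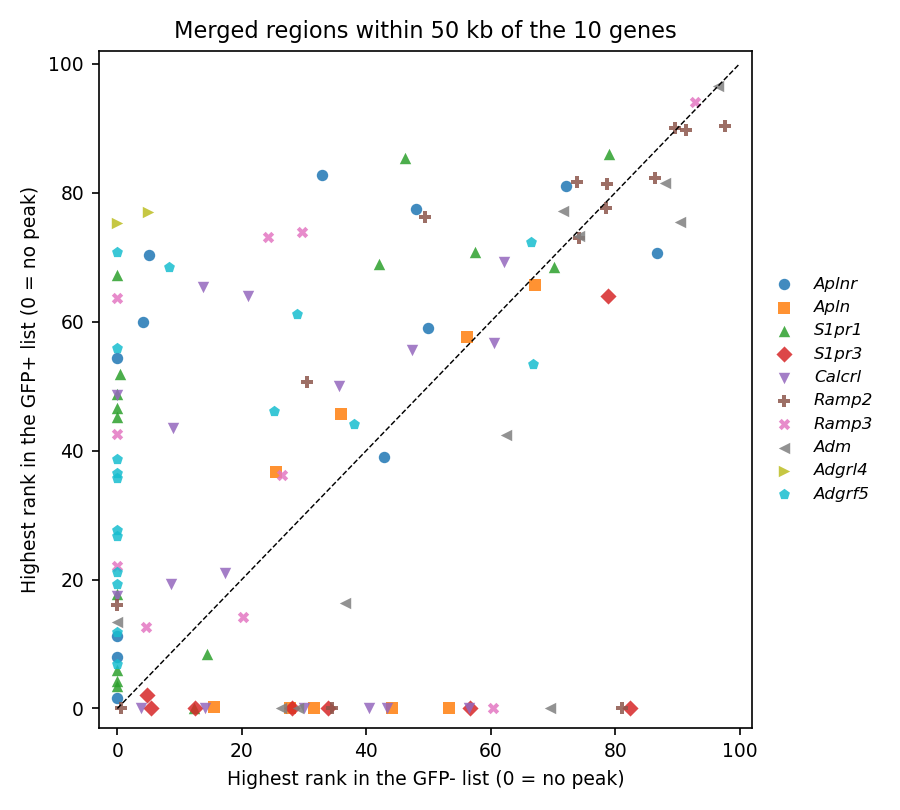
Highest rank in the GFP- list (x axis) and in the GFP+ list (y axis) of each merged region within 50 kb of the 10 genes, with 0 for no peak and 1 colour and symbol per gene. The dashed line marks equal rank. Of 116 regions 70 lie above it, and those of S1pr3 all lie below.

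Sequence words were counted in the 200 bp around each summit. The ETS word was in 16 of the 64 GFP+ peaks shared with GFP- in these windows (25%, 16.0 to 36.8), beside 11.5% of all shared GFP+ peaks, and in 15 of the 62 shared GFP- peaks (24.2%, 15.2 to 36.2), beside 11.2%. These are largely the same stretches of DNA counted from either list. In the GFP+ only peaks of the 10 genes the share was 7 of 31 (22.6%, 11.4 to 39.8), the same as among all GFP+ only peaks (22.6%). In the GFP- only peaks it was 1 of 23 (4.35%, 0.77 to 20.99), beside 11.5%. The SOX word was in 4 of 31 GFP+ only peaks (12.9%, 5.13 to 28.9), beside 5.86%, and the AP-1 word in 6 of 23 GFP- only peaks (26.1%, 12.5 to 46.5), beside 14.8%. Both intervals include their background. Among the promoters in the RefSeq table, 3 of the 8 entries for these genes held the ETS word (those of Apln, Calcrl and the first start of Adgrf5), where 10.8% of all promoters did. No interval was computed for this small count, in which Adgrf5 is entered repeatedly. The starts of Apln and Calcrl were not called different between the lists.

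Of the 47 other genes of these pathways, a start peak was present in both lists for 33, in GFP- only for 3 and in neither for 11, and 0 had one in GFP+ only. Over all protein-coding genes with a start peak in either list, 4.71% had it in GFP- only and 1.46% in GFP+ only, so these counts were near the background. Of all protein-coding genes, with or without a start peak, 61.8% had one in GFP- and 59.8% in GFP+. Among the S1P genes 10 of 12 had a start peak in both lists, among them Spns2, the S1P exporter of endothelial cells (90.4 in GFP-, 91.0 in GFP+), and the kinase gene Sphk1 (95.2 and 88.2). S1pr2 (91.5 and 88.3) and S1pr5 (27.1 and 21.2), the other receptor genes with a start peak, kept near-equal ranks, unlike S1pr3. Among the apelin-related genes 4 of 6 were open in both, and Apela, which encodes the second ligand of the apelin receptor, had no start peak. Of the adrenomedullin and CGRP genes, 2 of 7 were open in both, 4 in neither, and Ramp1, the subunit of the CGRP receptor, in GFP- only with rank 12.2.

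Among the 11 related adhesion receptor genes 7 had start peaks in both lists. Adgrg1 was the 1 gene of the 47 called higher in GFP+ (60.3 in GFP-, 93.1 in GFP+), where 2.53% of all genes with a start peak were. Adgrf2 (rank 63.8, GFP- only) and Adgrl3 (88.8 in GFP-, 25.9 in GFP+), relatives of Adgrf5 and Adgrl4, were called lower. In all, 4 of the 47 genes were called lower, where 8.72% of all genes with a start peak were, so this count was near the background. Of the 11 signal transducer genes 10 had start peaks in both lists and none was called higher, and the regulator Rgs5, also a pericyte marker, was in GFP- only with rank 16.2.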

How the data were processed

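Nuclei from hearts of NuTRAP/Cdh5-Cre mice were sorted into GFP+ and GFP- populations and ATAC-Seq libraries were prepared in duplicate. Per the paper's methods and the labels, the authors used fastp for trimming and Bowtie2 for alignment to mm10 (2.3.5.1 in the submitters' notes, another version in the paper), filtered by mapping quality with SAMtools 1.19, removed duplicates with Picard, and downsampled the libraries. Peaks were called with Genrich in ATAC mode on both replicates together, leaving out the mitochondrial and Y chromosomes and ENCODE blacklist regions. The deposited narrowPeak values are a signal (the area of significance over the peak), the −log10 p of the summit and a score. The authors' deposited score was at its limit of 1000 for 83.9% of GFP- and 82.0% of GFP+ peaks and was not used. Library depths were not analysed here, so the precision behind a single rank is unknown.

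Areas were converted to percentile ranks within each list, starts and genes were taken from GENCODE M21, and windows were the gene record with 50 kb on each side. Overlap meant at least 1 bp. Shares carry 95% Wilson intervals. Genes and lists were chosen with earlier results of these data known. All 10 genes were named, with the highest-ranked intron or flank peak of each list and the highest-ranked peak in 1 list only, and from the other lists genes with a start peak in 1 list only; other genes and peaks were named after their values were seen, and the sequences printed were selected from these. Alternatives were ranking by summit −log10 p or by area per bp, a start window of 1000 bp or only the first base of the gene record, peaks of rank 25 or more, 50% overlap, flanks of 20 or 100 kb, peaks nearest to the gene, and word windows of 300 bp. Python 3.11.15 with pandas 2.3.3, scipy 1.17.1 and pysam 0.24.0 was used, and the steps were tested on simulated peak lists.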

Additional observations from a re-analysis of the deposited data

How the results depend on the processing

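Of 95 counts, shares and medians recomputed under another setting, 89 stayed within the tolerance set (1.5 times for counts, the 95% Wilson interval for shares, 5 points for medians) and 6 did not. These tolerances are wide: within them the median region difference was 2.80 points with ranks by summit −log10 p and 2.30 by area per bp, beside 6.49, and with peaks of rank 25 or more only, 6 genes had a GFP- start peak in place of 8. Ranked by area per bp, 2 genes were lower in GFP+ in place of 1, because the Ramp2 start difference reversed to -24.5, while that of Aplnr fell to 15.7. With an overlap of 50% of both peaks, 48.2% of GFP- and 53.7% of GFP+ peaks of the windows had no counterpart. With flanks of 100 kb the median region difference was 0.36 points. With starts within 1000 bp, 4 adrenomedullin and CGRP genes had a GFP+ start peak in place of 2, and with the 5′ end of the gene record only, 0 fibroblast markers did in place of 2 and 6 endothelial markers in place of 8. Of 50 single start differences recomputed, 36 moved by less than 5 points, 13 moved further without a change of sign, and 1 reversed. No paired analysis was possible because both replicates were pooled in 1 peak list per population, and for the same reason no replicate could be left out. Peaks below the caller's threshold are not in the lists, so a start without a peak is not shown to be closed.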
